A study of Homo sapiens with 6 samples.

Results

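The loci of NRG1 and ERBB4, a growth factor gene and the gene of its receptor, were described by the accessible sites called in them. A peak belonged to a locus when its midpoint lay in chromosome 8:31.45-32.67 Mb for NRG1 or in chromosome 2:212.2-213.45 Mb for ERBB4 (hg19). These 2 windows held 199 of the 478912 peaks summed over 6 libraries. Peaks that overlapped between libraries by at least 1 bp were merged into sites, of which 36 lay in the NRG1 window and 38 in the ERBB4 window, 74 of 157560 in the genome.

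Chromatin accessibility had been profiled by ATAC-seq, a method that lets the enzyme Tn5 insert adapters where DNA is open, in cardiomyocytes of ventricular type that were differentiated from H9, a human embryonic stem cell line. One group was labelled as a knockdown of ZNF436, which encodes a KRAB zinc finger protein, and the other as control; the labels do not state how the knockdown was made or what the controls received in its place. Both groups were taken at day 15 of the same differentiation protocol, with 50000 cells per library and 3 libraries per group, each from its own differentiation per the labels. The data were 1 list of called peaks per library, and no annotation of hg19 was used here, so neither the knockdown nor the cell type could be checked at marker genes.

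Neuregulin-1, the product of NRG1, is a ligand of the epidermal growth factor family that in the heart is released mainly by endocardial and microvascular endothelial cells. ERBB4 is a receptor tyrosine kinase of cardiomyocytes that binds neuregulin and signals as a dimer, often with ERBB2, and mice lacking either gene fail to form the trabeculae of the ventricle. Both genes are very long and consist mostly of introns, and NRG1 has several alternative promoters that give its isoform types. RefSeq gives NRG1 a length of 1.135 Mb between its protein-coding neighbours WRN and POFUT3, and ERBB4 a length of 1.163 Mb between CPS1 and IKZF2 (GRCh38.p14, another build than that of the peaks).

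NRG1 is transcribed towards higher coordinates and ERBB4 towards lower ones. If the ERBB4 window holds the whole gene at the RefSeq length, 86.9 kb are left over, so the start of ERBB4 lies in the uppermost of 10 equal parts of the window, of 125 kb each. As the start of a receptor gene whose upper end held several called sites, the RefSeq promoter of ERBB4 is shown, from 250 bases before the start to 50 after it (GRCh38.p14, chr2:212538753-212539052, minus strand, 5' to 3', capitals marking CG pairs). It was not placed among the sites, which are in hg19.
ERBB4 promoter: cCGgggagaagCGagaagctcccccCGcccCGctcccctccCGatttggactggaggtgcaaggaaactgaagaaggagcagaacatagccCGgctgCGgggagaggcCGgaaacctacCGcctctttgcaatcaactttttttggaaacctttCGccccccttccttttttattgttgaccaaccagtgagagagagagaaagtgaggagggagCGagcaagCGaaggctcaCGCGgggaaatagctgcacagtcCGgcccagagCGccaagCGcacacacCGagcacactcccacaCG
Its share of G and C was 59.0%, near the median of 58.7% over 35116 RefSeq promoters of the same length, and it held 19 CG pairs against a median of 14. Motifs of 4 factor families with roles in heart or growth control were sought on both strands. The AP-1 letters TGANTCA were absent from the ERBB4 promoter and present in 7.71% of all promoters. The GATA letters AGATAA were absent too and present in 10.3%. The same held for the TEAD letters CATTCC, present in 14%, and for the MEF2 motif, present in 0.504% and written with the letters CTAAAAATA.

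Both windows held more called peaks in ZNF436 knockdown than in control libraries. In the NRG1 window, knockdown replicates 1, 2 and 3 had 27, 24 and 15 peaks and control replicates 1, 2 and 3 had 9, 8 and 7. The lowest knockdown library lay above the highest control library. The mean was 22 ± 6.25 peaks in knockdown and 8.0 ± 1.0 in control (SD, n = 3 each), a ratio of 2.75 ± 0.853, where the error combines both SDs. In lists from bulk libraries, a site open in more cells and a site more open in each cell cannot be told apart. In the ERBB4 window, knockdown replicates 1, 2 and 3 had 31, 30 and 22 peaks and control replicates 1, 2 and 3 had 7, 7 and 12. Here too the groups did not overlap, and the mean was 27.7 ± 4.93 peaks in knockdown and 8.67 ± 2.89 in control (SD, n = 3 each), a ratio of 3.19 ± 1.21. The genes had been chosen on these peak numbers and on the sites called only in knockdown, so the differences are descriptions and were not tested. Knockdown libraries were also separate from and above control libraries in 89.1% of 2355 windows of 1.22 Mb that tile the genome and in 88.6% of 2299 windows of 1.25 Mb, each with a mean of at least 2 peaks.

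The lists themselves differed in length. The knockdown lists held 115864, 102454 and 87871 peaks and the control lists 50719, 53662 and 68342, a ratio of means of 1.77 ± 0.379. Sequencing depth is unknown here, and the number of peaks a caller reports moves with depth, so depth and knockdown cannot be told apart in the peak numbers. Counted as peaks per 100000 peaks in the list, the NRG1 window had 23.3, 23.4 and 17.1 in knockdown replicates 1, 2 and 3 and 17.7, 14.9 and 10.2 in control replicates 1, 2 and 3. The groups overlapped through knockdown replicate 3 and control replicate 1, and the ratio was 1.49 ± 0.469. The ERBB4 window had 26.8, 29.3 and 25.0 per 100000 in knockdown and 13.8, 13.0 and 17.6 in control, with no overlap and a ratio of 1.83 ± 0.331. By this share, knockdown was separate and higher in 36.3% of windows of 1.22 Mb and 36.9% of windows of 1.25 Mb.

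The receptor locus also held more peaks in knockdown when each list was kept to its 50719 highest-scoring peaks, the length of the shortest list. The ERBB4 window then had 14, 14 and 15 peaks in knockdown replicates 1, 2 and 3 and 7, 7 and 11 in control replicates 1, 2 and 3. The groups stayed separate, with a ratio of 1.72 ± 0.482, and 24.6% of windows of that length were separate in the same direction. The NRG1 window had 10, 10 and 9 peaks in knockdown and 9, 8 and 6 in control, and the groups met at 9 peaks, with a ratio of 1.26 ± 0.262 (24.7% of windows separate). Lists cut in this way retain 43.8 to 57.7% of each knockdown library's peaks and 74.2 to 100% of each control library's, so lower ranks remain for control.

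**Figure D1:**
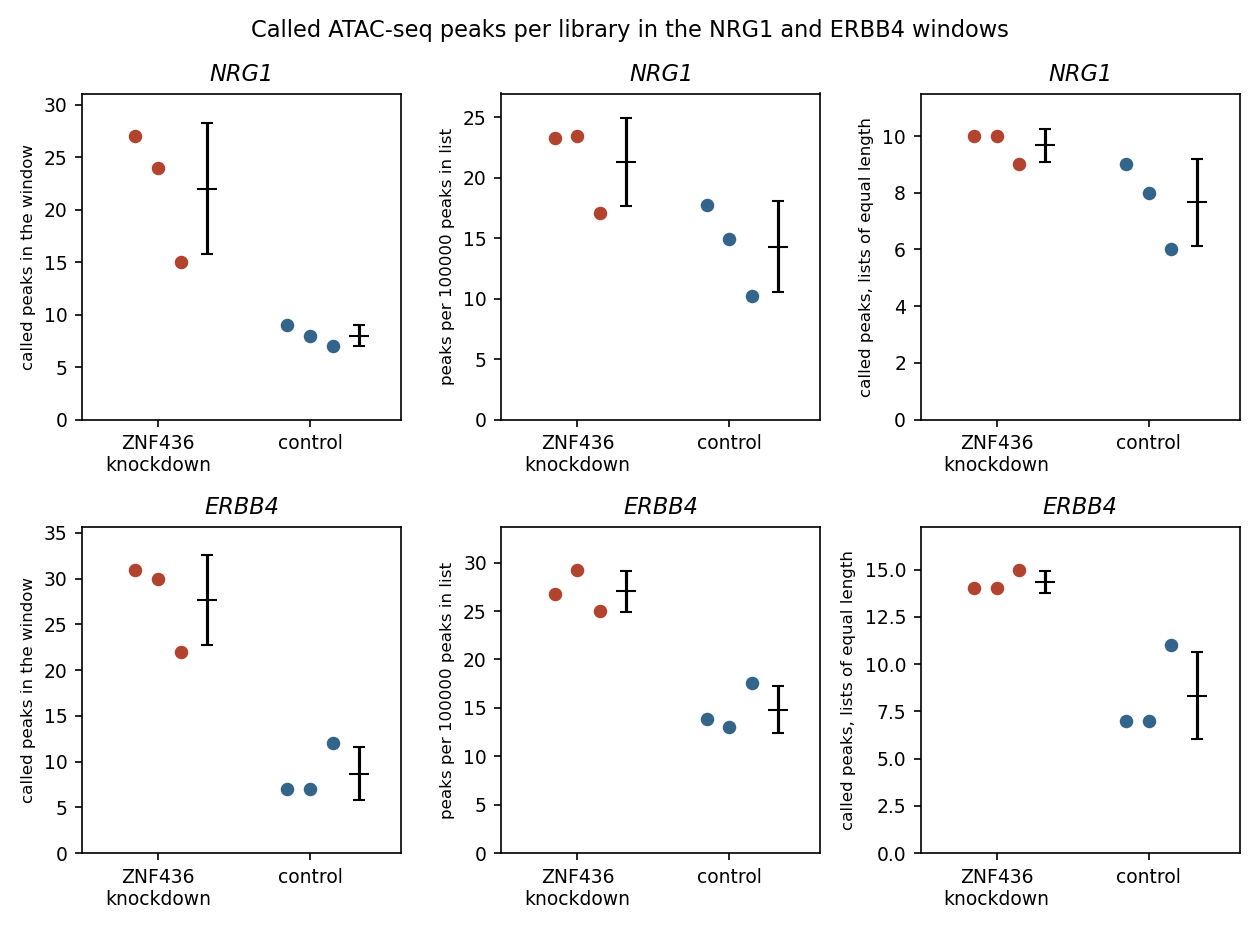
Called peaks per library in the NRG1 window (top) and the ERBB4 window (bottom), as peak numbers (left), as peaks per 100000 peaks in the list (middle) and as peak numbers in lists of equal length (right); points are libraries, in order of replicate number, and bars give the mean and SD of 3 libraries. In the NRG1 window the groups overlap in the middle panel and meet at 9 peaks in the right one, and in the ERBB4 window they are separate in all 3.

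On the log2 scale of (peaks + 0.5) per list, the share of the NRG1 window was 0.54 higher in knockdown than in control (SD 0.47, n = 3 each) and that of the ERBB4 window 0.82 higher (SD 0.23, n = 3 each). The median over windows of the same length was 0.16 and 0.17, so the changes relative to it were 0.38 for NRG1 and 0.65 for ERBB4. The change of the NRG1 window was above that of 81.6% of windows and the change of the ERBB4 window above that of 92.6%. With lists of equal length these shares were 71.5% and 94.2%. Both loci were sparsely filled to begin with: 21.3% of windows had fewer control peaks than the NRG1 window and 23.2% had fewer than the ERBB4 window, where the median window had a mean of 18.0 control peaks.

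**Figure D2:**
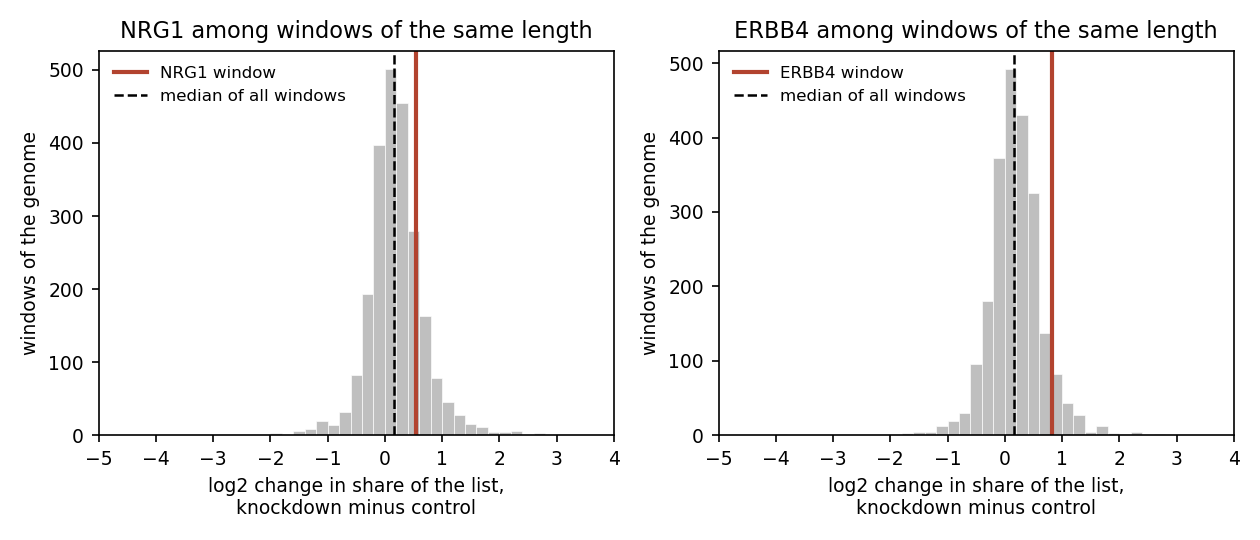
Histograms of the log2 change in share of the list, knockdown minus control, over windows of 1.22 Mb (left, with NRG1) and 1.25 Mb (right, with ERBB4) that tile chromosomes 1 to 22 and X; the y axis counts windows, the solid line marks the gene window and the dashed line the median. The NRG1 window, at 0.54, lies within the upper shoulder of the distribution and the ERBB4 window, at 0.82, further out.

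The bases covered by peaks followed the same order. The NRG1 window had 7.76, 7.39 and 5.56 kb covered in knockdown replicates 1, 2 and 3 and 3.72, 2.74 and 2.23 kb in control replicates 1, 2 and 3, and 96.2% of windows of its length were separate in this way. The ERBB4 window had 11.9, 9.17 and 8.82 kb in knockdown and 1.85, 1.99 and 2.88 kb in control (96.5% of windows separate). Their ratios were 2.38 ± 0.741 and 4.45 ± 1.34. At ERBB4 this ratio was above that of peak numbers, and at NRG1 it was below. With lists of equal length the NRG1 window had 3.96, 4.47 and 4.28 kb in knockdown and 3.72, 2.74 and 2.06 kb in control (87.1% of windows separate). The ERBB4 window then had 5.29, 5.57 and 7.12 kb in knockdown and 1.85, 1.99 and 2.75 kb in control (87.6% of windows separate).

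Most sites of both loci were called in knockdown libraries alone. Of the 36 NRG1 sites, 23 (63.9%) were called only in knockdown, 3 (8.33%) only in control and 10 in both groups. Of the 38 ERBB4 sites, 25 (65.8%) were called only in knockdown, 0 only in control and 13 in both groups. Over the genome, sites of knockdown alone made up 47.7% and sites of control alone 10.7%. Many of these calls rested on 1 library, with 13 such knockdown sites at NRG1 (36.1%) and 13 at ERBB4 (34.2%), against 28.5% of all sites. Sites that every knockdown library and no control library called numbered 4 at NRG1 and 5 at ERBB4, or 11.1% and 13.2% of the sites, where 7.72% of all sites in the genome had this pattern. The opposite pattern, all 3 control libraries and no knockdown library, had 0 sites at either locus and 0.131% of the sites in the genome. Sites called in all 6 libraries numbered 3 at NRG1 (8.33%) and 1 at ERBB4 (2.63%), against 18.2% in the genome.

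These counts depended on single libraries. Without knockdown replicate 3, which had the fewest peaks of its group, the count for knockdown alone was 9 at NRG1 and 10 at ERBB4, or 25.7% and 28.6% of the sites left, where the genome had 15.6%. Without control replicate 2 it was 5 and 8, or 14.3% and 21.1%, where the genome had 9.25%. A count over fewer libraries is also the easier one to meet. With lists of equal length, 0 NRG1 sites and 3 ERBB4 sites had calls from every knockdown library and no control library, a pattern of 3.06% of the sites in the genome. The opposite pattern, that of 1.32% of the sites, again had 0 at both loci. Counting sites called in any number of libraries of 1 group, the equal lists gave 6 knockdown-only and 5 control-only sites of 19 at NRG1, and 9 knockdown-only and 4 control-only sites of 23 at ERBB4. In the genome these shares were 18.1% for knockdown only and 26.3% for control only. The 4 NRG1 sites were then still called in 1, 1, 2 and 1 knockdown libraries, ordered by position. Lists cut to equal length only lose peaks, so these sites could gain no control call.

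The 3 NRG1 sites called in all 6 libraries lay in 2 places. The first was a cluster of 4 sites between 623 and 634.7 kb from the lower edge of the window. Its strongest site, chr8:32072819-32073108, was called in all 6 libraries. Its score percentile, the rank of a peak's score within its own list, was 95.9, 96.4 and 96.8 in knockdown replicates 1, 2 and 3 and 71.1, 74.5 and 92.5 in control replicates 1, 2 and 3. It was the highest-ranked NRG1 site in each knockdown library. The next site, chr8:32077981-32078552, was also called in all 6 libraries, at percentiles of 69.7 to 76.8 in knockdown and 34.9 to 61.9 in control. The other members of the cluster were called in every knockdown library and in 1 control library each. Of these, chr8:32081123-32081487 ranked at 89.2, 86.0 and 84.6 in knockdown and 69.1 in control replicate 2, and chr8:32084507-32084839 at 75.0, 72.0 and 54.6 in knockdown and 34.9 in control replicate 1. Lists of different lengths give percentiles over different peaks, so these ranks describe each list and show no change between groups. In lists of equal length the strongest site stood at 90.6, 92.8 and 94.5 in knockdown and 71.1, 73.0 and 89.9 in control. The groups then overlapped at chr8:32077981-32078552, with 36.8, 53.1 and 47.6 in knockdown and 34.9, 59.7 and 40.3 in control. At chr8:32084507-32084839 knockdown stood at 43.0, 43.3 and 21.3 and control replicate 1 at 34.9. At chr8:32081123-32081487 knockdown stood at 75.2, 71.8 and 73.3 and control replicate 2 at 67.3.

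The second place was a broad site of 1842 bp, chr8:32405159-32407000, made up of 8 peaks from all 6 libraries. Its highest percentile per library was 89.2, 89.8 and 86.7 in knockdown replicates 1, 2 and 3 and 66.2, 80.2 and 87.2 in control replicates 1, 2 and 3. In lists of equal length the groups overlapped, at 75.2, 79.3 and 77.0 in knockdown and 66.2, 79.0 and 82.7 in control. Within 6 kb above it lay chr8:32412275-32412494, called in every knockdown library and in control replicates 1 and 3.

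The NRG1 sites called in all 3 knockdown libraries and no control library mostly ranked lower, at percentiles of 24.7 to 75.0 in the knockdown lists, where the 3 sites called in all 6 libraries ranked at 69.7 to 96.8. They were chr8:31936286-31936551, with percentiles of 58.1, 41.6 and 24.7 in knockdown replicates 1, 2 and 3, and chr8:31971683-31972501, with 52.0, 26.4 and 57.9. The others were chr8:32446869-32447246, with 75.0, 67.1 and 37.1, and chr8:32572758-32573011, with 39.8, 37.0 and 46.9. The nearest control peak was 136.3, 100.3, 34.4 and 9.70 kb away, in the same order.

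A few NRG1 sites ran the other way, with calls in more control than knockdown libraries. The site chr8:32503653-32504147 was called in control replicates 1 and 2, at percentiles of 34.9 and 18.1, and in no knockdown library. Both control calls stayed with lists of equal length, which only leave peaks out, so no knockdown call could be gained. This site was named after its values were seen. Sites called in 2 control libraries and no knockdown library made up 2.78% of the NRG1 sites and 0.71% of the sites in the genome. The site chr8:32582708-32583061 was called in control replicates 1 and 2, at 19.8 and 61.9, and in knockdown replicate 1 at 34.8. The lowest of 10 equal parts of the window, which holds the lower end of NRG1 if the window spans the whole gene, had 1 site called in both groups. This site, chr8:31496553-31497169, did not run the other way. It was called at 44.3, 52.6 and 31.2 in the knockdown libraries and at 19.8 in control replicate 1 alone.

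The receptor locus had 1 site called in all 6 libraries, chr2:212456028-212457379, of 1352 bp and 9 peaks. Its highest percentile per library was 91.8, 93.5 and 91.8 in knockdown replicates 1, 2 and 3 and 66.2, 61.9 and 71.3 in control replicates 1, 2 and 3. In lists of equal length the values were 81.2, 86.9 and 85.7 in knockdown and 66.2, 59.7 and 61.3 in control. Each control library had 2 narrower peaks there and each knockdown library 1, so the ranks are of unlike peaks. A further 10 ERBB4 sites were called in every knockdown library and in 1 or 2 control libraries, 5 each, or 13.2% of the ERBB4 sites for either number. Over the genome 7.63% of sites had 1 control library beside every knockdown library, and 6.52% had 2. The strongest of these by its lowest percentile, chr2:213271401-213271810, ranked at 86.7, 78.9 and 92.1 in knockdown and at 82.6 in control replicate 3. The site chr2:213224090-213224475 ranked at 88.3, 83.0 and 86.7 in knockdown and at 51.9 and 77.0 in control replicates 1 and 3. In lists of equal length its ranks overlapped, at 73.2, 65.6 and 77.0 in knockdown and 51.9 and 69.0 in control replicates 1 and 3.

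Of the ERBB4 sites called in all 3 knockdown libraries and no control library, chr2:213210771-213211017 ranked highest, at percentiles of 79.4, 67.1 and 71.6 in knockdown replicates 1, 2 and 3. It was followed by chr2:212608073-212608591 at 75.0, 60.8 and 46.9 and by chr2:213040811-213041206 at 58.1, 65.1 and 46.9. These 3 were the sites that kept the pattern with lists of equal length, where the first stood at 53.0, 33.5 and 50.7, the second at 43.0, 20.9 and 7.96 and the third at 4.20, 29.6 and 7.96. The other ERBB4 sites of this kind were chr2:213021693-213022059, at 65.2, 52.6 and 37.1, and chr2:212869963-212870260, at 44.3, 20.5 and 10.7. With lists of equal length, chr2:213021693-213022059 was called in 2 knockdown libraries and chr2:212869963-212870260 in none. Of the 5, chr2:212608073-212608591 lay nearest to a control peak, at 1.53 kb, and chr2:212869963-212870260 farthest, at 232 kb.

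The uppermost part of the ERBB4 window, which by the reckoning above holds the start of the gene, had adjoining broad sites that were called in both groups at modest ranks. The site chr2:213401220-213402838 collected 10 peaks and ranked at 52.0, 26.4 and 46.9 in knockdown replicates 1, 2 and 3, and at 34.9 and 32.3 in control replicates 1 and 3. Next to it, chr2:213402883-213404456 ranked at 48.4, 55.6 and 57.9 in knockdown and at 19.8 and 1.29 in control replicates 1 and 3. Control replicate 2 had no peak in either. It did have one in chr2:213412887-213413495, at 57.4, where knockdown ranked at 76.2, 79.8 and 77.5, control replicate 3 at 45.6, and control replicate 1 had none. With lists of equal length, chr2:213401220-213402468 was called in knockdown replicate 3 (7.96) and control replicates 1 and 3 (34.9 and 8.76). Then chr2:213403446-213404456 had knockdown replicates 2 and 3 (10.3 and 27.0) and control replicate 1 (19.8). Control replicate 3 alone called chr2:213402520-213402838 and chr2:213405111-213405319. In the full lists both lay within sites that knockdown libraries called too. The first lay in chr2:213401220-213402838, given above. The second lay in chr2:213404967-213405337, at 52.0 and 31.9 in knockdown replicates 1 and 2 and 32.3 in control replicate 3. At chr2:213412887-213413495 ranks overlapped, at 45.7, 59.1 and 61.0 in knockdown and 54.9 and 26.8 in control.

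Both loci had a stretch with peaks of every knockdown library and of no control library. From 122 to 610 kb in the NRG1 window, knockdown replicates 1, 2 and 3 had 7, 6 and 3 peaks and each control library had 0. From 500 to 875 kb in the ERBB4 window, knockdown replicates had 7, 4 and 5 peaks and each control library again had 0. Both stretches were picked after the values were seen. Such a stretch, of 4 neighbouring parts of 10, was found in 5.52% of windows of 1.22 Mb, and one of 3 parts in 10.7% of windows of 1.25 Mb. The longest distance between neighbouring peaks of the pooled lists was 179.7 kb in knockdown and 576 kb in control at NRG1, and 145.4 kb in knockdown and 492.2 kb in control at ERBB4. The longest distance was greater in control in 83.4% of windows of the NRG1 length and 84.1% of the ERBB4 length, all counted in lists that are longer in knockdown. The ratio of control to knockdown distance was 3.21 at NRG1 and 3.39 at ERBB4, against medians of 1.38 and 1.41 over the windows. With lists of equal length, 1, 0 and 1 knockdown peaks remained in the NRG1 stretch and 3, 3 and 2 in the ERBB4 stretch, while the control libraries could gain none. Stretches with a peak of every knockdown library and none of control were then found in 2.31% and 4.27% of windows, and the NRG1 stretch was no longer one of this kind.

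**Figure D3:**
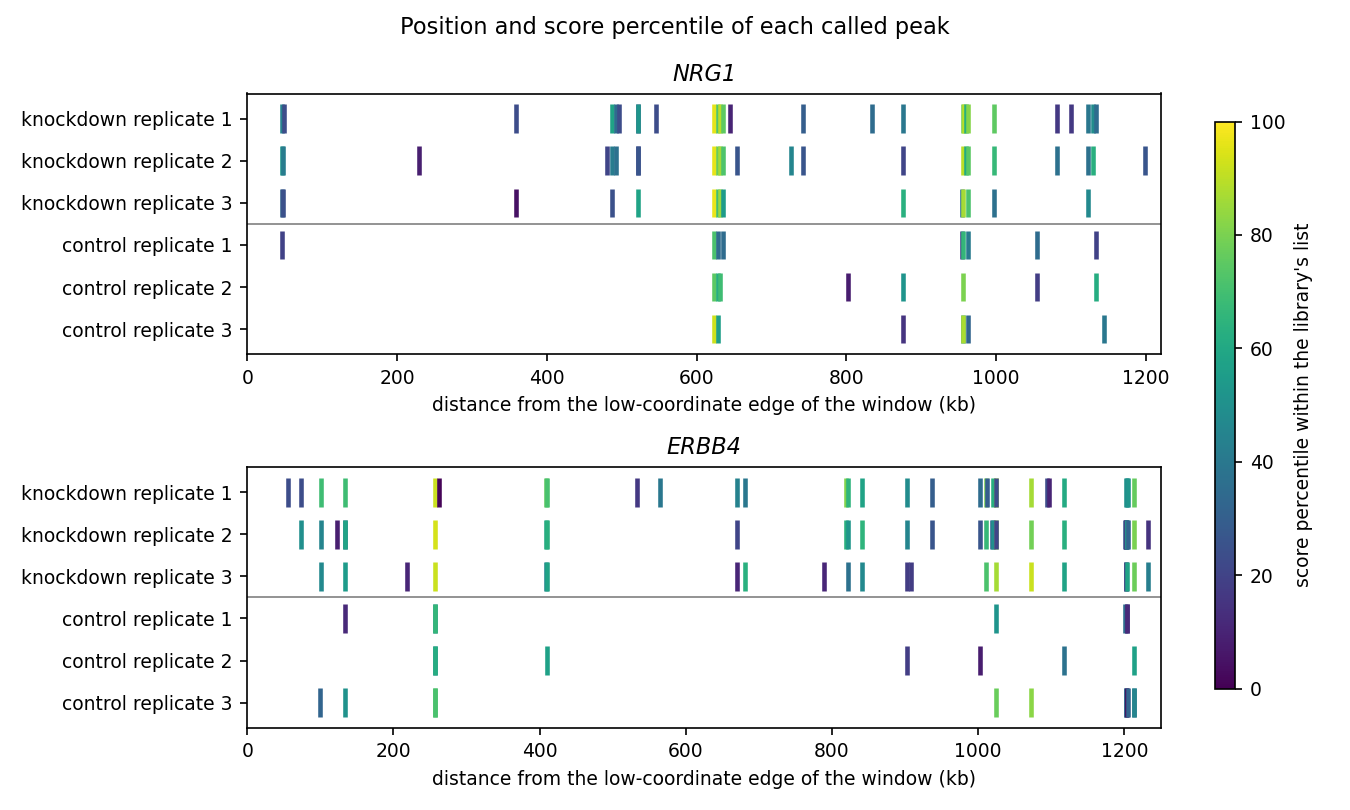
Position of each called peak along the NRG1 window (top) and the ERBB4 window (bottom), as distance in kb from the edge with the lower coordinate; each row is a library, knockdown above the line and control below it, and colour gives the score percentile within the library's list. Control rows are empty from 122 to 610 kb at NRG1 and from 500 to 875 kb at ERBB4, where knockdown rows hold scattered peaks of mostly low to middle rank.

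Along the gene, peaks were summed over the 3 libraries of each group in the full lists, which are longer in knockdown. At NRG1 the sum of knockdown peaks was highest in the sixth of 10 parts of the window, with 15 peaks against 8 in control. The eighth part followed, with 13 against 9. These parts hold the 3 NRG1 sites called in all 6 libraries. At ERBB4 the sum of knockdown peaks was highest in the ninth part, with 22 against 5 in control, and in the uppermost part, with 17 against 10. By replicate, the ninth part had 10, 8 and 4 in knockdown and 1, 2 and 2 in control. The uppermost part had 4, 8 and 5 in knockdown and 3, 1 and 6 in control, which overlap. At NRG1 the sixth part had 5, 6 and 4 in knockdown and 3, 3 and 2 in control. The groups met at 4 peaks in the eighth, with 5, 4 and 4 in knockdown and 3, 2 and 4 in control. The third part of the ERBB4 window holds the site called in all 6 libraries. In the full lists it was the only part of either window with fewer knockdown than control peaks, at 4 and 6. All 6 control peaks lay in that site, which each control library called as 2 peaks, of 246 to 354 bp. Each knockdown library called it as 1 peak, of 1111 to 1296 bp.

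Peaks of the 2 loci were of middle rank in their lists. The median percentile of the NRG1 peaks was 39.8, 41.6 and 54.6 in knockdown replicates 1, 2 and 3 and 34.9, 61.9 and 51.0 in control replicates 1, 2 and 3. That of the ERBB4 peaks was 52.0, 47.5 and 46.9 in knockdown and 34.9, 45.3 and 42.6 in control. Only 1 or 2 peaks per window and knockdown library were above the 90th percentile. In control libraries this was so for 1 NRG1 peak of replicate 3 and for 0 ERBB4 peaks.

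The stretches beside the genes were counted in 2 windows of the same length on each side. As peak numbers, the knockdown libraries were separate from and above the control libraries in 7 of these 8 windows, with ratios of 1.78 to 2.69. The exception was the window just below ERBB4, where knockdown had 11 to 20 peaks and control 5 to 11. As peaks per 100000 in the list, 5 of the 8 were separate, and the ratios ran from 1.01 to 1.55. The ratio of the ERBB4 window, 1.83 ± 0.331, was above all 8 of these, and that of the NRG1 window, 1.49 ± 0.469, lay within their range. With lists of equal length, 4 of the 8 were separate, with ratios of 1.11 to 1.75, a range that holds both gene windows. The highest of them, 1.75 ± 0.41 in the second window below ERBB4, was above the 1.72 ± 0.482 of ERBB4 itself, with 11 to 12 peaks in knockdown and 5 to 8 in control. The difference between a gene window and its neighbours was not tested. The 2 windows below NRG1 were far richer in peaks than NRG1 itself, with 62.8 ± 2.83 and 61.5 ± 4.33 peaks per 100000 in knockdown and 57.3 ± 7.03 and 46.4 ± 0.99 in control (SD, n = 3 each), in order of position. Sites called in all 3 knockdown and no control library made up 4.35 to 17.9% of the sites in the 8 neighbouring windows, a range that holds both gene windows.

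**Figure D4:**
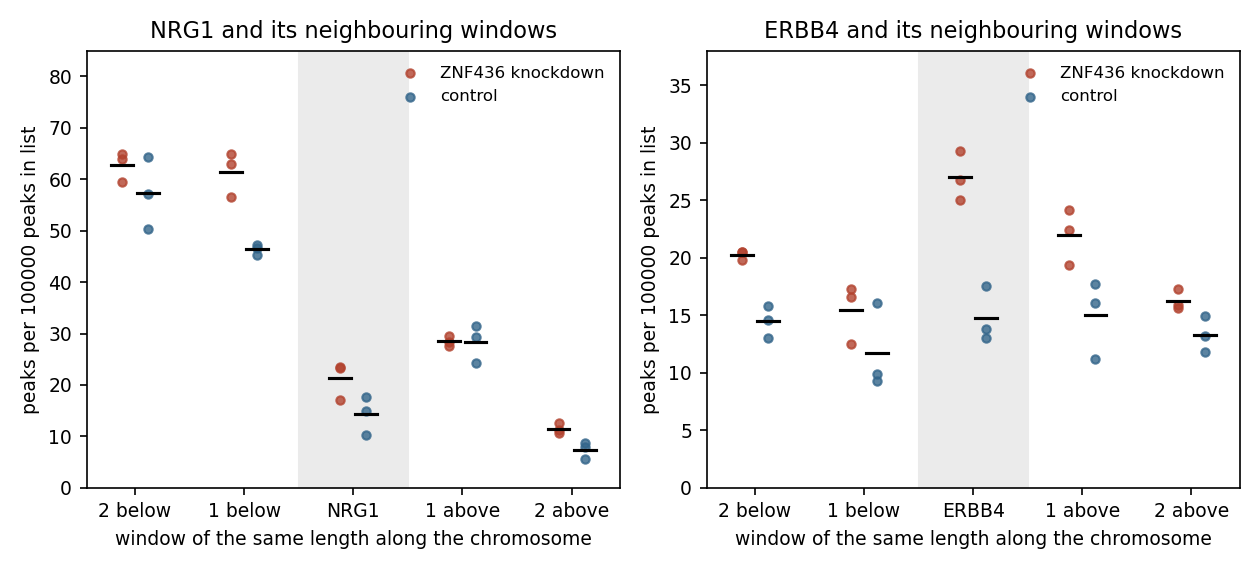
Peaks per 100000 peaks in the list in the gene window (grey band) and in 2 windows of the same length on each side, for NRG1 (left) and ERBB4 (right); points are libraries and bars the mean of 3. The 3 knockdown libraries lie above the 3 control libraries at ERBB4 and in 5 of the 8 neighbouring windows, while the groups overlap at NRG1.

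The edges of the windows decided little. The sites next to the lower edge lay 46.9 kb inside and 50.2 kb outside it at NRG1, and 56.1 kb inside and 53.5 kb outside it at ERBB4. At the upper edge of NRG1, the midpoint of a site called in 1 knockdown library lay 0.003 kb outside and the next site 21.5 kb inside. At the upper edge of ERBB4 the distances were 17.5 kb inside and 61.7 kb outside.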

How the data were processed

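Peak lists of 6 ATAC-seq libraries were used. Per the submitters' processing notes, the authors used Bowtie2 2.4.5, bedtools 2.30.0 and the build hg19, with no role or order given. Peak names begin with MACS and carry 1 library's name, which points to calling library by library. The sources used here do not give the caller's version or threshold, nor any Tn5 shift or duplicate filter. The integer score of each peak is the authors' deposited value and served only for ranks within 1 list, tied scores sharing their mean rank.

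The gene windows, lists and stretches were chosen with earlier results of these data known, so no p-value is given. In any case 3 libraries against 3 could not go below 0.1 in an exact permutation test, two-sided. Ratios are of group means, their SD combined from both groups. Sites named are those called in 1 group by all its libraries (up to 5 per window and direction, also with lists of equal length) and those in all 6 (up to 4), by their lowest percentile. Others were chosen after their values were seen. Windows tiling the genome started at the first base of a chromosome. Lists of equal length broke ties at random with a fixed seed. Merging and counting were tested on simulated data. Python 3.11.15, pandas 2.3.3 and numpy 2.4.6 were used. Pathway genes, cell type markers and sequences of sites need an annotation or genome of hg19 and were not analysed here. NRG1 sequence is not reported here.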

Additional observations from a re-analysis of the deposited data

How the results depend on the processing

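All 4 results, the ratio of peaks and the number of sites called in all 3 knockdown and no control library at each gene, were recomputed under the alternatives. Of the values, 33 stayed close to the reported one, 23 moved and 0 reversed. A number of sites was taken as close within a factor of 1.5. It cannot fall below 0, so only the ratios could have reversed. Closeness of the ratios was judged by another rule than this factor. At ERBB4, for example, 3.95 counted as close to 3.19 and 4.45 as moved. The ratio at NRG1, 2.75, was 1.26 with lists of equal length and 1.49 as a share of the list. At ERBB4, 3.19 became 1.72 and 1.83, and it was 4.56 with the higher-scoring 50% of each list and 4.45 by bases covered. The NRG1 sites, 4, numbered 0 with equal lists, 2 with the higher-scoring 50% and 10 when at least 2 of 3 knockdown libraries sufficed; the ERBB4 sites, 5, numbered 3, 3 and 12. Handling of tied scores in equal lists was varied after the data were seen. With ties dropped or kept, the ratio was 1.32 or 1.26 at NRG1 and 1.71 or 1.76 at ERBB4, with 0 and 3 sites either way. Shorter lists hold fewer peaks by construction, and other causes were not tested. Leaving out each library gave ratios of 2.44 to 3.19 at NRG1 and 2.91 to 3.95 at ERBB4, with 4 to 9 and 5 to 10 sites. The labels do not say that libraries of the same number were paired. The ratio within each replicate number, a replicate block, had a geometric mean of 2.68 at NRG1 and 3.27 at ERBB4, as a description with no test. The depth of the libraries is unknown and limits every count.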

Other observations

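Peaks at both loci were mostly narrower than the median peak of their lists. The median width of NRG1 peaks was 197, 247.5 and 255 bp in knockdown replicates 1, 2 and 3, below the 295, 290 and 306 bp of their lists, and 313, 234 and 231 bp in control replicates 1, 2 and 3, where replicate 1 was above the 290 bp of its list and the others below 278 and 271 bp. ERBB4 peaks had medians of 253, 231 and 279.5 bp in knockdown and 276, 252 and 200 bp in control, each below that of its list. The single ERBB4 site shared by all libraries was 1352 bp wide and the 3 such NRG1 sites had a median of 572 bp, against 873 bp for such sites in the genome. Sites called in all 3 knockdown and no control library had a median width of 322 bp at NRG1 and 367 bp at ERBB4, against 353 bp in the genome.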
